A study of Rattus norvegicus with 6 samples.

Results

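The genes described here code for proteins that act together at the replication fork: the 5 subunits of replication factor C (*Rfc1* to *Rfc5*), the large subunit of an alternative form of it (*Chtf18*), the 3 subunits of replication protein A (*Rpa1*, *Rpa2* and *Rpa3*) and DNA ligase I (*Lig1*). They were taken as every non-control probe of a rat expression array whose gene name in the array files is one of these names, which gave 10 genes with 13 probes, out of 17763 named genes and 45598 probes. RNA came from β-cells of rat pancreatic islets, in 3 islet preparations of 4 rats each. The islets had been cultured overnight in low glucose with EdU, a thymidine analogue that is built into new DNA, and the dispersed cells were stained with the zinc dye Newport Green, fixed, and sorted by size, granularity and both labels. The EdU+ cells are called replicating and the EdU- cells quiescent. Each preparation gave 1 array of either kind, so that there were 3 replicating and 3 quiescent arrays from young adult male Wistar rats with no further treatment or genotype. EdU marks cells that made DNA at any time during the labelling, so that the replicating group also holds cells past S phase, and each array holds cells pooled from several animals.

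Replication factor C is a ring of 5 related ATPases that opens the sliding clamp PCNA and closes it around DNA at the end of a primer, which lets the polymerases work along the strand without falling off. When CHTF18 takes the place of RFC1 on the same 4 small subunits, the complex loads clamps in connection with the joining of sister chromatids and with the leading-strand polymerase. Replication protein A coats single-stranded DNA wherever the strands are apart, and DNA ligase I seals the nicks between Okazaki fragments after the flaps have been removed. Most adult β-cells do not divide, so these proteins serve mainly the few cells that copy their genome, and DNA repair in the others.

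The probes of the array are 60 bases long. Those that carry the largest differences, and that of *Rfc4*, which lay nearest to the threshold, are printed from the array files, 5′ to 3′, with positions on the rat build rn4.
*Rfc3*, chr12:3224623-3224682, minus strand: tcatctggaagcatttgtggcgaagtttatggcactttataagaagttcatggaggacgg
*Chtf18*, chr10:14988387-14988528, minus strand: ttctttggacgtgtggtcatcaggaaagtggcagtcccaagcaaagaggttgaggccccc
*Rpa1*, dimmer probe, chr10:62618471-62619284, minus strand: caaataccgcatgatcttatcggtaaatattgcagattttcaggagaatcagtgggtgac
*Lig1*, dimmer probe, chr1:73767023-73767082, plus strand: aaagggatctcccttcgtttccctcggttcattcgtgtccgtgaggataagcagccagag
*Rfc4*, chr11:79949868-79949927, plus strand: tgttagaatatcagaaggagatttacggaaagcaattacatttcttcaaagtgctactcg
The *Chtf18* probe is spread over 142 bases of the genome and the dimmer *Rpa1* probe over 814, so that both cross at least 1 intron, while the others lie in 1 unbroken stretch. No gene annotation of rn4 was used here, so exons and untranslated regions are not named.

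Levels are log2 of the normalized array signal, and a log2 ratio is replicating over quiescent within a preparation. Each probe was tested in limma, blocked by preparation. A gene was called at an unadjusted p of at most 0.05 with an absolute log2 ratio of at least 1, the selection the study used, on its brightest probe over all 6 arrays. At an adjusted p under 0.05 no probe passed (0 of 45598, smallest adjusted p 0.0977), against 4379 probes, or 9.6%, at the unadjusted p, so that a call here is not corrected for the number of probes. The count at the adjusted p moved with the setting, to 719 with normexp values scaled to the 75th percentile, 99 without the block, 84 without preparation 2, 61 with a variance trend and 34 with the median of a gene's probes. The only member that passed in any of these was *Rfc3*, with the first of them (adjusted p = 0.00278). Of all named genes 5.92% were called higher and 2.6% lower. This split depended on the scaling: with the processed signal scaled to the 75th percentile it was 2.16% higher and 5.14% lower. That scaling also moved the median log2 ratio of all genes from 0.02 to -0.42, and normexp values scaled to the 75th percentile moved it to -0.25, with 5.2% called higher and 9.93% lower.

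The arrays were not equally alike. Pearson's r over all probes, which are not independent replicates, was 0.967 to 0.986 between replicating arrays, and 0.83, 0.867 and 0.654 between quiescent arrays 1 and 2, 1 and 3, and 2 and 3. Quiescent array 3 was closer to the replicating arrays, at 0.943 to 0.969, than to the other quiescent arrays. So was quiescent array 1, at 0.869 to 0.887, by a smaller margin. Quiescent array 2 was closest to quiescent array 1, at 0.83, against 0.672 to 0.709 with the replicating arrays. Across probes, the log2 ratios of preparations 1 and 2 correlated at 0.63, those of 1 and 3 at 0.164 and those of 2 and 3 at 0.0167. Quiescent array 2 also held the most outlier spots, 1583 against 252 to 299 on the others. Well above background were 86.5%, 80.8% and 87.3% of probes on replicating arrays 1, 2 and 3. On quiescent arrays 1, 2 and 3 the shares were 96.4%, 98.4% and 85.7%. The labels were checked on genes outside the set: *Top2a*, the topoisomerase of dividing cells, had a log2 ratio of 3.76 (SE 0.30), and *Mki67*, the proliferation marker Ki-67, one of 2.33 (SE 0.69), both called higher. Of the 5 proliferation markers listed 4 were called higher. The exception was *Birc5*, at -0.93 (SE 1.01), with -3.97 in preparation 2. The insulin genes *Ins1* and *Ins2*, with ratios of 0.25 (SE 0.34) and 0.42 (SE 0.34), were not called, and were far above background on every array, at 15.51 to 17.20.

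All 10 genes had a fitted log2 ratio above 0, although that of *Rfc1* turned to -0.54 with the processed signal and that of *Rpa3* to -0.13 with normexp values scaled to the 75th percentile. *Rfc3*, *Chtf18* and *Rpa1* were called higher in the replicating β-cells and 0 were called lower. That makes 3 of 10 genes, where 5.92% of all named genes were called higher. The median log2 ratio of the 10 genes was 0.76, against 0.02 over all named genes. By preparation it was 1.27, 0.82 and 0.82, against 0.11, 0.10 and -0.05. In 7 genes the ratio was above 0 in every preparation, which held for 18.4% of all named genes measured on every array. In 6 genes the 3 replicating arrays all lay above the 3 quiescent arrays, which held for 11.2%.

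**Figure D1:**
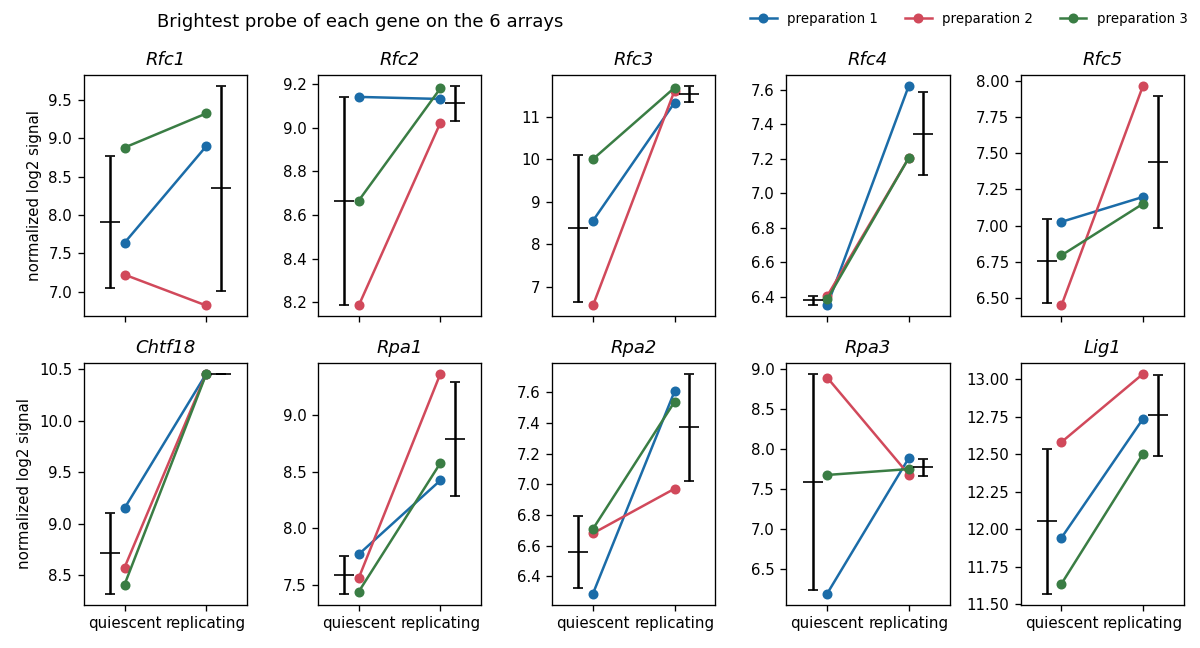
Normalized log2 signal (vertical axes, a separate range for each gene) of the brightest probe of each of the 10 genes in quiescent and replicating β-cells. Each line joins the 2 arrays of 1 islet preparation, and the bars beside the points are the mean and SD of 3 arrays. The groups do not overlap for *Rfc3*, *Rfc4*, *Rfc5*, *Chtf18*, *Rpa1* and *Rpa2*, and the 3 replicating arrays of *Chtf18* fall on 1 point.

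*Rfc3*, a small subunit of the clamp loader, had the largest ratio of the 10 genes. In preparations 1, 2 and 3, in this order here and throughout, its level was 11.34, 11.62 and 11.69 in replicating cells and 8.56, 6.56 and 10.01 in quiescent cells. The replicating arrays lay close together, at 11.55 ± 0.19 (SD, n = 3), while the quiescent arrays spread widely, at 8.38 ± 1.73 (SD, n = 3), and the lowest value came from quiescent array 2. The log2 ratio was 3.17 (SE 0.69, 95% interval 1.42 to 4.92), or 9.01-fold, with an unadjusted p of 0.00539 in limma and an adjusted p of 0.475. It was 2.78, 5.05 and 1.68 in the 3 preparations, and 2.23 without preparation 2. Of all probes, 0.206% had a larger ratio.

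The other 3 small subunits had smaller ratios and none was called. *Rfc4* came nearest. Its replicating arrays stood at 7.62, 7.21 and 7.21 and its quiescent arrays at 6.35, 6.40 and 6.38, without overlap and with a quiescent SD of 0.03. The quiescent level is close to the limit of measurement, since only 2 of the 3 quiescent arrays read the probe well above background. The log2 ratio was 0.97 (SE 0.32, 95% interval 0.16 to 1.77), or 1.95-fold, with an unadjusted p of 0.0272, so that it missed the call by its size alone. It passed both criteria when the values were recomputed from the scanner signals (1.01), with a normexp offset of 16 (1.41) and without preparation 2 (1.05). In limma the p criterion itself failed with the processed signal (1.19, unadjusted p = 0.234) and with normexp values scaled to the 75th percentile (0.51, unadjusted p = 0.335). It also failed without preparation 1 (0.81, unadjusted p = 0.203) and without preparation 3 (1.04, unadjusted p = 0.0569).

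*Rfc5* had levels of 7.20, 7.97 and 7.15 in replicating and 7.03, 6.45 and 6.79 in quiescent cells. The groups did not overlap, but the gap between them was small and the ratios were uneven, at 0.17, 1.52 and 0.36. The fitted log2 ratio of 0.68 (SE 0.40, 95% interval -0.34 to 1.70) did not pass the test (unadjusted p = 0.147 in limma). *Rfc2* stood at 9.13, 9.02 and 9.18 in replicating and 9.14, 8.19 and 8.67 in quiescent cells. In preparation 1 its values on both arrays were nearly equal, with a ratio of -0.01, and the groups overlapped. Its fitted log2 ratio was 0.45 (SE 0.34, 95% interval -0.41 to 1.31, unadjusted p = 0.242).

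The 4 small subunits are present together in each clamp loader. Their fitted ratios were 0.45, 0.68 and 0.97 for *Rfc2*, *Rfc5* and *Rfc4*, with SEs of 0.32 to 0.40, and 3.17 for *Rfc3*, which was set against the others here because it was the largest. With a normexp offset of 16 they were 0.47, 0.91 and 1.41, and 3.43 for *Rfc3*. *Rfc5* and *Rfc4* were dim, with 20.3% and 15.5% of named genes below them, against 56.6% for *Rfc2* and 72.5% for *Rfc3*. Within a preparation, the log2 ratio of *Rfc3* exceeded the mean of those of *Rfc2*, *Rfc4* and *Rfc5* by 2.30, 4.00 and 1.12, a mean of 2.47 ± 1.45 (SD, n = 3). The direction was the same in 3 of 3 preparations, but an exact sign-flip test, two-sided, cannot go below p = 0.25 with 3 preparations, which is the value it gave.

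Of the large subunits of the common and the alternative clamp loader, that of the alternative one was called. *Rfc1*, the large subunit of the loader of bulk replication, stood at 8.89, 6.82 and 9.32 in replicating and 7.64, 7.22 and 8.88 in quiescent cells. The groups overlapped through replicating array 2, which lay below all quiescent arrays, while replicating arrays 1 and 3 lay above all of them. The ratio was 1.26, -0.40 and 0.45, and the fitted value of 0.43 (SE 0.42, 95% interval -0.65 to 1.52) did not pass the test (unadjusted p = 0.352). For *Rfc1* the 2 arrays of preparation 2 were the lowest of their groups.

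*Chtf18*, which takes the place of *Rfc1* in the alternative loader, stood at 10.45 on all 3 replicating arrays, with an SD of 0.0024. On the quiescent arrays it stood at 9.15, 8.58 and 8.41, at a mean of 8.71 ± 0.39 (SD, n = 3), well below every replicating array. The log2 ratio was 1.74 (SE 0.33, 95% interval 0.89 to 2.58), or 3.34-fold, with an unadjusted p of 0.00308 and an adjusted p of 0.443. It was 1.30, 1.88 and 2.04 in the 3 preparations. At the same thresholds *Rfc3* and *Chtf18* kept their call in all 12 alternatives of processing, model or samples, with ratios of 2.23 to 3.92 and 1.59 to 1.96. At an adjusted p under 0.05 neither was called in the main setting. Among the alternatives *Rfc3* passed it only with normexp values scaled to the 75th percentile, and *Chtf18* in none. The ratio of *Chtf18* exceeded that of *Rfc1* by 0.04, 2.28 and 1.59, a mean of 1.30 ± 1.15 (SD, n = 3), for which the exact sign-flip test gave p = 0.25, the smallest it can give.

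**Figure D2:**
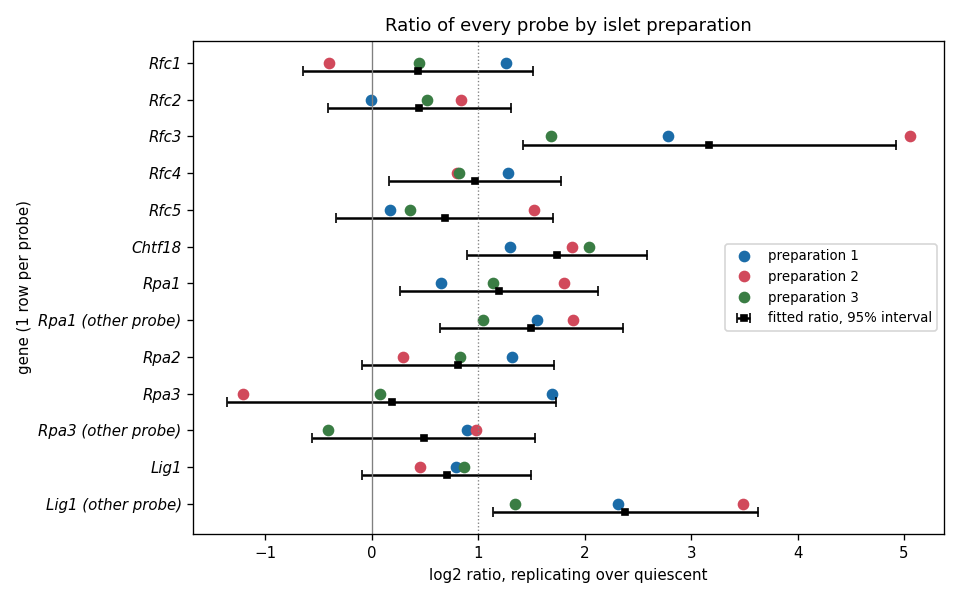
Log2 ratio of replicating over quiescent β-cells (horizontal axis) for each probe of the 10 genes. Small points are the 3 islet preparations, in colour, and the black square with its bar is the limma estimate with its 95% interval. The intervals of both *Rpa1* probes, *Rfc3*, *Rfc4*, *Chtf18* and the dimmer *Lig1* probe lie above 0.

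Of replication protein A, the large subunit was called and the others were not. *Rpa1*, which holds most of the DNA-binding domains, stood at 8.42, 9.36 and 8.58 in replicating and 7.77, 7.56 and 7.44 in quiescent cells on its brightest probe (chr10:62613149-62613208, minus strand), without overlap. The log2 ratio was 1.20 (SE 0.37, 95% interval 0.26 to 2.13), or 2.29-fold, with an unadjusted p of 0.0213 and an adjusted p of 0.475. The call rested on having all 3 preparations: the unadjusted p was 0.057 without preparation 1, 0.0631 without preparation 2 and 0.0572 without preparation 3, with log2 ratios of 1.47, 0.89 and 1.23. In limma it was also lost with a variance trend (1.20, unadjusted p = 0.0504), with the processed signal (0.98, unadjusted p = 0.222) and with normexp values scaled to the 75th percentile (0.76, unadjusted p = 0.163).

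The dimmer *Rpa1* probe, printed above, lies 5262 bases away on the genome and reads the gene at another place on the same arrays. It stood at 8.51, 8.23 and 8.72 in replicating and 6.96, 6.33 and 7.67 in quiescent cells, again without overlap. It gave a log2 ratio of 1.50 (SE 0.34), or 2.82-fold, with an unadjusted p of 0.00636, and was called as well. Its ratios by preparation were 1.55, 1.89 and 1.05, more even than the 0.65, 1.80 and 1.13 of the brightest probe.

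*Rpa2*, the middle subunit, which is phosphorylated when replication is disturbed, stood at 7.60, 6.97 and 7.54 in replicating and 6.29, 6.68 and 6.71 in quiescent cells. The groups did not overlap, and the log2 ratio of 0.81 (SE 0.35, 95% interval -0.09 to 1.71) did not pass the test (unadjusted p = 0.0687). Without preparation 2 the ratio was 1.07 and passed both criteria (unadjusted p = 0.0327). The p criterion alone was met without the block (unadjusted p = 0.0309) and with a variance trend (unadjusted p = 0.0436). The probe was dim, with 17.7% of named genes below it, though well above background on every array. With a normexp offset of 16 the ratio was 1.13 (unadjusted p = 0.0509 in limma). The ratio was 0.59 with the processed signal (unadjusted p = 0.571) and 0.38 with normexp values scaled to the 75th percentile (unadjusted p = 0.488). Without preparation 1 it was 0.56 (unadjusted p = 0.368), and without preparation 3 it was 0.80 (unadjusted p = 0.150).

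*Rpa3*, the smallest subunit, had the smallest ratio of the 10 genes. Its brightest probe stood at 7.89, 7.68 and 7.75 in replicating and 6.19, 8.90 and 7.68 in quiescent cells, where the quiescent arrays lay on both sides of the replicating ones. The ratio was 1.70, -1.21 and 0.07, and the fitted value was 0.19 (SE 0.61, 95% interval -1.36 to 1.73, unadjusted p = 0.772). Without preparation 1 it was -0.57. The other *Rpa3* probe, 25 bases away, gave 0.90, 0.98 and -0.41, with a fitted value of 0.49 (SE 0.41, unadjusted p = 0.289). The 2 probes thus had opposite signs in preparations 2 and 3, and neither was called. The ratio of *Rpa1* minus that of *Rpa3* was -1.04, 3.01 and 1.06 in the 3 preparations, so their order was not the same in each (exact sign-flip test, p = 0.5).

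For *Lig1* the result depended on the probe. The brightest probe, read from 10 spots on each array, stood at 12.74, 13.04 and 12.50 in replicating and 11.94, 12.58 and 11.64 in quiescent cells. Every replicating array was above the quiescent array of its own preparation, by 0.79, 0.46 and 0.87, but the groups overlapped. The fitted log2 ratio of 0.71 (SE 0.31, 95% interval -0.09 to 1.50), or 1.63-fold, did not pass the test (unadjusted p = 0.0714).

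The dimmer *Lig1* probe, read from 2 spots, stood at 10.47, 10.34 and 10.82 in replicating and 8.15, 6.85 and 9.47 in quiescent cells, without overlap. Its log2 ratio was 2.38 (SE 0.49, 95% interval 1.13 to 3.63), or 5.21-fold, with an unadjusted p of 0.00427 and an adjusted p of 0.475, past both criteria. By preparation it was 2.32, 3.49 and 1.34. The difference between the probes within a preparation was 1.52, 3.03 and 0.48, a mean of 1.68 ± 1.29 (SD, n = 3), with the same sign in 3 of 3 preparations and an exact sign-flip p of 0.25, the smallest possible. The SD between spots of 1 probe on 1 array, which leaves out the variation between preparations, was 0.0691 to 0.113 for the brightest probe and 0.09 to 0.372 for the dimmer one. With the median over both probes in place of the brightest, *Lig1* was called (1.54, unadjusted p = 0.00497).

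The probes of *Lig1* lie 286 bases apart on the plus strand, and the brightest (chr1:73767369-73767428) is the one further downstream. It holds the hexamer AATAAA, the usual signal for the 3′ end of a transcript, starting at base 38 of the probe. The 30 bases of the probe around this signal are shown, with the hexamer in capitals.
*Lig1*, brightest probe, part of chr1:73767369-73767428: ttcattttattcAATAAAtgactatcattt
The dimmer probe, printed above, has no stop codon in 2 reading frames of its 60 bases. The brightest probe also has 1 such frame, so an open frame does not tell the probes apart. Whether the probes read different transcripts was not tested.

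By probe rather than by gene, 5 of the 13 probes were called higher, where 4.44% of all probes were, and they belong to the 4 genes *Rfc3*, *Chtf18*, *Rpa1* and *Lig1*. Called lower were 0 of the 13, against 4.18% of all probes. At the unadjusted p alone 4 of the 10 genes were higher, the 3 called ones and *Rfc4*, against 6.64% of all named genes.

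**Figure D3:**
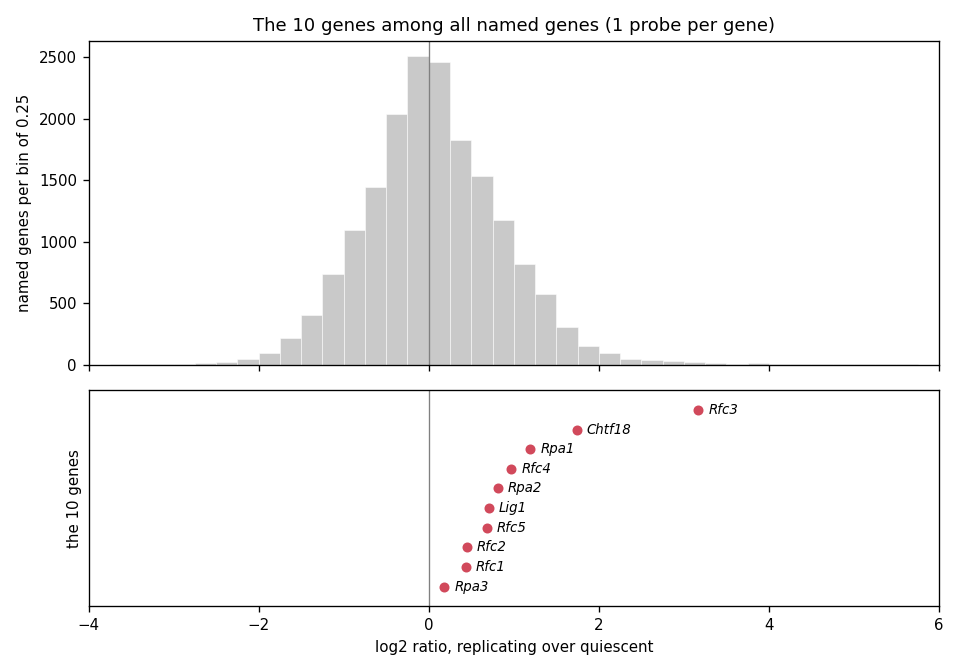
Upper panel, number of named genes (vertical axis) by log2 ratio of replicating over quiescent β-cells (horizontal axis, bins of 0.25), 1 probe per gene. Lower panel, the 10 genes on the same axis in order of their ratio, which runs from 0.19 for *Rpa3* to 3.17 for *Rfc3*.

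The genes were compared in how they varied over the 6 arrays. Pearson's r of a gene with the mean of the other 9, after each gene was centred, was highest for *Rfc4* (0.936), *Chtf18* (0.892), *Rpa2* (0.867) and *Rfc3* (0.828). It was lowest for *Rfc1* (0.223) and *Rpa3* (-0.0706). The 6 arrays fall into the sorted groups and share their preparations and normalization, so that a gene that differs between the groups has a high r by that alone, and these values are given without a test. The mean of the centred levels was 0.55, 0.44 and 0.56 on the replicating arrays and -0.57, -0.66 and -0.32 on the quiescent ones.

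Among 14366 other genes that were well above background on all 6 arrays, those whose levels followed this mean most closely included *Brca2* and *Gpx1* (r = 0.998 each), *Aspm* (0.997) and *Tpm4* (0.996). *Brca2* codes for a protein of homologous recombination and *Aspm* for one of the mitotic spindle, with log2 ratios of 3.15 and 3.74. *Gpx1*, a glutathione peroxidase, and *Tpm4*, a tropomyosin, had ratios of 1.41 and 1.03. With 6 arrays and so many candidates, values this high say little about any single gene.

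Genes that work next to these proteins were taken from lists chosen by function. Of the 50 on the array, 16 were called higher and 0 lower, where 5.92% and 2.6% of all named genes were. Their median log2 ratio was 0.69, against 0.02 over all named genes. Without preparation 1, 8 of the 50 were called, where 1.7% of all named genes were called higher. With the processed signal 10 of the 50 were called, against 2.16%. Among the genes of alternative clamp loaders and the checkpoint clamp, 1 of 7 was called higher. This was *Dscc1*, a subunit of the same complex as *Chtf18*, which stood at 10.34, 9.99 and 9.95 in replicating and 7.03, 6.73 and 8.07 in quiescent cells, with a log2 ratio of 2.82 (SE 0.42, unadjusted p = 0.000991, adjusted p = 0.267).

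The remaining 6 of that list were not called. *Chtf8*, the third partner that is particular to the *Chtf18* complex, had a log2 ratio of -0.13 (SE 0.32), with overlapping groups. *Atad5*, whose product unloads the clamp, had 0.52 (SE 0.47). *Rad9b*, *Rad1* and *Hus1*, which code for parts of the checkpoint clamp or close relatives, had 0.70, 0.25 and 0.61, although *Rad1* was well above background on 2 replicating arrays and 1 quiescent array only. *Rad17*, which loads that clamp, was not well above background on any replicating array so that its level there has only an upper bound, and no ratio is given for it.

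In the list of the clamp, polymerases, primase and flap removal, 9 of 18 genes were called higher, at a median log2 ratio of 1.14. The largest called ratios were those of *Pclaf*, a PCNA-binding protein (3.39), *Prim1* and *Prim2* of the primase (2.88 and 2.15), *Fen1*, the flap nuclease (2.47), and *Pola2* of polymerase α (2.45). *Pcna*, the clamp that replication factor C loads, was called at 1.68. Of the genes for single-stranded DNA binding and partners of replication protein A, 2 of 12 were called, among them *Primpol* (2.06), a primase that restarts stalled forks. Of the fork components and fork protection, 3 of 8 were called, *Timeless* (2.53), *Wdhd1* (1.50) and *Ctc1* (1.01). Of the other DNA ligases and their partners, 1 of 5 was called, *Xrcc1* (1.54), the scaffold that binds ligase III, while *Lig3* and *Lig4* had 0.47 and 0.78 and *Xrcc4* and *Nhej1* had -0.77 and -0.63.

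**Figure D4:**
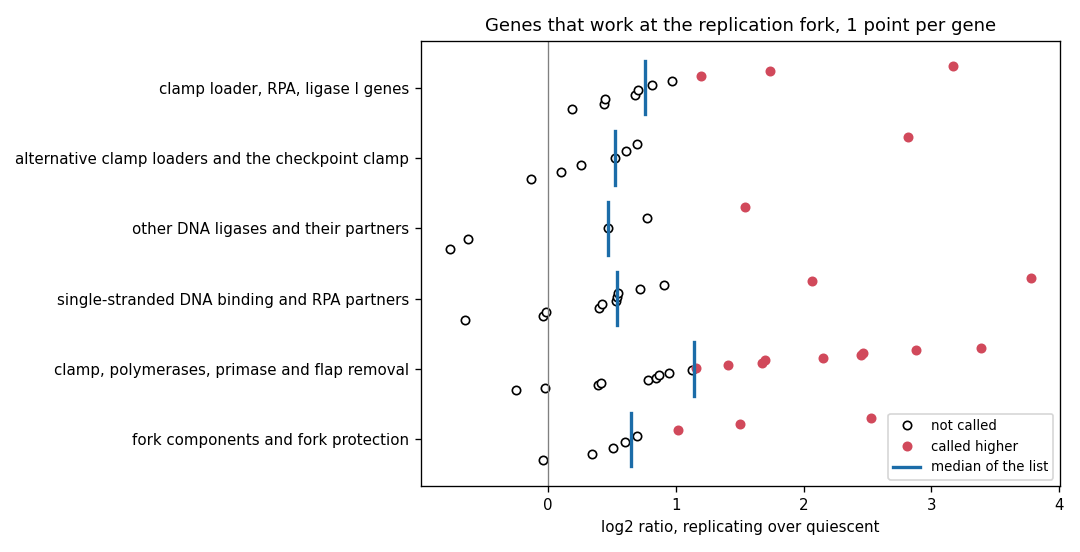
Log2 ratio of replicating over quiescent β-cells (horizontal axis) for the 10 genes and for the 5 lists of neighbouring genes, 1 point per gene, filled for called genes, with a vertical line at the median of each list. The medians are 0.76 for the 10 genes, 1.14 for the clamp, polymerase, primase and flap list, and 0.47 to 0.65 for the others.

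Markers of some other cell types differed between the groups. The median log2 ratio was 0.83 for alpha, delta and PP cell markers and 0.88 for fibroblast and stellate cell markers. It was 0.50 for immune cell markers, 0.23 for acinar and duct cell markers and -0.25 for endothelial cell markers. Of 7 markers of alpha, delta and PP cells, 3 were called higher in the replicating samples, *Gcg* (2.39), *Sst* (1.74) and *Ppy* (1.21), and their mean level was 9.14 to 10.04 on the replicating and 8.32 to 8.92 on the quiescent arrays. Of 9 fibroblast and stellate cell markers 3 were called higher, *Col1a2* (2.93), *Col3a1* (3.04) and *Vim* (1.89), with mean levels of 8.99 to 10.2 and 8.32 to 8.41. Of 6 immune cell markers 2 were called, with mean levels of 8.57 to 9.30 and 8.39 to 8.50. Of 9 acinar and duct cell markers 2 were called, with 10.1 to 11.8 and 9.61 to 11.7, and of 6 endothelial cell markers 0, with 8.76 to 9.77 and 9.06 to 9.80. Of 10 β-cell markers 0 were called higher and 1 lower, *Mafa* (-1.01), with mean levels of 13.2 to 13.4 and 13.1 to 13.8. Their median log2 ratio was -0.31. The ratio was above 0 in 4 of the 10, of which *Pcsk1* had the largest (1.01, unadjusted p = 0.122 in limma). These mean levels could not reach 0, since the lowest level well above background was 5.91 to 6.53, depending on the array. They therefore do not tell whether such cells were present in a group. The part of other cell types in the ratios of the 10 genes was not tested. In such sorted pools, more expressing cells and more RNA per cell cannot be told apart.

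Promoters were looked up because several of these genes differed between the groups together. RefSeq promoters of the assembly GRCr8, 250 bases before to 50 bases after each start, were at hand for 9 of the 10 genes. The letters TTTCCCGC, TTTCGCGC, TTTGCCGC and TTTGGCGC, the forms of the site of E2F factors searched here on both strands, occurred in 3 of the 9, *Rfc3*, *Rpa2* and *Lig1*, against 2.14% of 33469 promoters. Each of the 9 genes has 1 window in the table, and of the 24206 genes with 1 window 2.28% held a match. Each of these matches overlapped the start that the table gives or lay after it. With the search limited to the bases before the start, 0 of 9 held one, against 1.73%. The matches are shown in capitals within 30 bases of the plus strand of GRCr8, where a match on the other strand reads as its reverse complement.
*Rfc3*, first match, chr12:5836554-5836583: acgtcgcagccTTTCGCGCtcgcgggaaaa
*Rfc3*, second match, chr12:5836564-5836593: ctttcgcgctcGCGGGAAAactcgtctgtc
*Rpa2*, chr5:150260768-150260797: gccacgccggaGCGGCAAAcacttcttaag
*Lig1*, chr1:83243178-83243207: ccaaggtctgcGCGCGAAAtctgtgtggcg
Of these genes *Rfc3* was called on its only probe, *Lig1* on 1 of its 2 probes and *Rpa2* on none, while *Chtf18* and *Rpa1* were called and held no such match in this window.

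The CCAAT box, searched as CCAAT on both strands, occurred in 5 of 9, against 37.5% of all promoters, the GC box GGGCGG in 6 of 9, against 33.1%, and the letters TTTGAA of the cell cycle homology region in 0 of 9, against 18.3%. *Chtf18* held 3 CCAAT boxes, at 166, 70 and 35 bases before the start in the table. They are shown in capitals, the last as its reverse complement ATTGG, in the 238 bases before the outermost annotated start.
*Chtf18*, chr10:15255574-15255811, minus strand: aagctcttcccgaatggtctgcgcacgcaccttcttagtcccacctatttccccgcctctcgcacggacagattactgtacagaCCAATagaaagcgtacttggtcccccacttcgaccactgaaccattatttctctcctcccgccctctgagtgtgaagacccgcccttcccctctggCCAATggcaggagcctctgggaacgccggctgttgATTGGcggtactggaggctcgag
A match is a run of letters and not a measured site of binding.

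**Figure D5:**
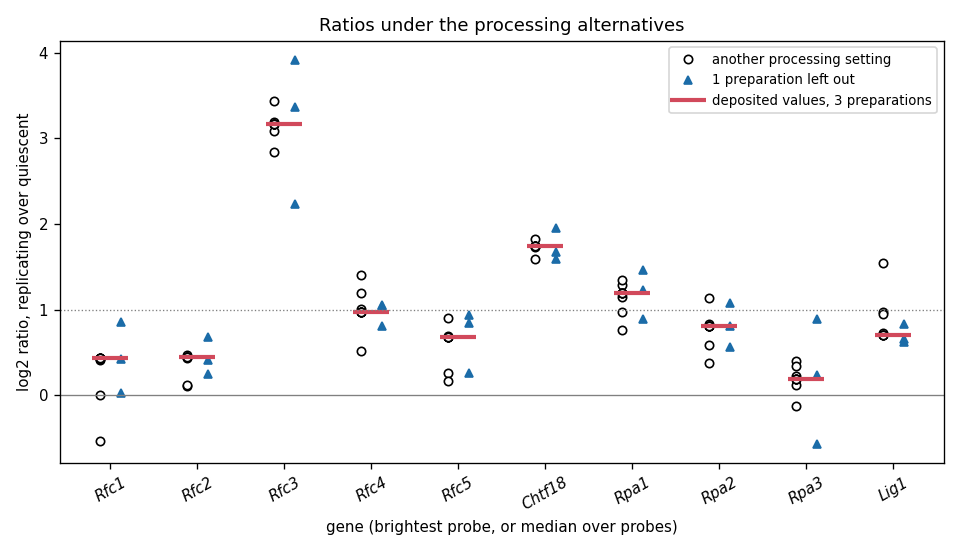
Log2 ratio of replicating over quiescent β-cells (vertical axis) for each of the 10 genes, as reported (red line), under the other processing settings (open circles) and with each preparation left out (triangles). *Rfc3* and *Chtf18* stay above 1 throughout, between 2.23 and 3.92 and between 1.59 and 1.96, while *Rfc1* falls to -0.54 and *Rpa3* to -0.57.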

How the data were processed

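RNA of fixed, sorted cells was amplified and labelled with Cy3, and 6 Agilent arrays were read with Feature Extraction 10.7.3.1. The authors deposited the intensity of each spot, not normalized between arrays, with flags (other values) per spot, and log2 values after normexp and quantile normalization in limma; the offset is not given in the sources used here. The deposited log2 values were used here. Recomputed with an offset of 50, they differed by at most 0.116. Control and outlier spots were left out, and spots of a probe averaged. Probes were fitted with limma 3.58.1 (R 4.3.3; files were read with the package data.table, version 1.17.8) by lmFit and eBayes, blocked by preparation, with Benjamini-Hochberg adjustment over all probes. Arrays were paired by the replicate number in their labels, which was taken as the islet preparation. The study describes a paired test on cells sorted from 3 preparations. Across probes, the deviations from the group means correlated within pairs at 0.0561, 0.242 and 0.258. The genes named are the 10 members, up to 5 called genes of each list with the largest ratio, all genes of the alternative clamp loader list, 4 genes checking the labels, and the 5 genes most alike, of which 1 is not reported here. *Pcna* and the markers were named after their values were seen. Members and lists were chosen with earlier results of these data known. Precision is limited by having 3 arrays in a group.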

Additional observations from a re-analysis of the deposited data

How the results depend on the processing

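The main count of 3 of 10 genes called higher became 0 at an adjusted p under 0.05, 4 at the unadjusted p alone, 2 with a variance trend, 4 with the median of a gene's probes, 4 with a normexp offset of 16, 4 from the scanner signals, and 2 with either scaling to the 75th percentile. Without the replicate block that pairs the arrays of a preparation it was 3. Of all named genes 5.92% were called higher in the main setting and with a variance trend. The share was 6.02% with the median of a gene's probes, 6.69% with an offset of 16 and 6.11% from the scanner signals. It was 2.16% with the processed signal and 5.2% with normexp values scaled to the 75th percentile, and 5.47% without the block. Leaving out each preparation in turn gave 2 to 4 genes called higher, 0 called lower, a median log2 ratio of 0.74 to 0.89, 7 to 9 genes without overlap, and 8 to 19 of the 50 neighbouring genes called. Without preparations 1, 2 and 3 in turn, 8, 19 and 19 neighbouring genes and 2, 4 and 2 of the 10 genes were called higher. Of all named genes 1.7%, 4.69% and 14.6% were called higher at these settings, and 0.15%, 1% and 9.84% lower. With 2 preparations, groups without overlap are easier to reach. The share of all named genes without overlap is not given for these settings or the scalings below, so these counts have no background.

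The processed signal scaled to the 75th percentile gave 3 genes without overlap in place of 6, 10 neighbouring genes called in place of 16, and -0.54 for *Rfc1*. Normexp values scaled to the 75th percentile gave a median of 0.45 in place of 0.76, 3 genes without overlap, and -0.13 for *Rpa3*. A normexp offset of 16 gave a median of 1.02. *Rpa3* ranged from -0.57 without preparation 1 to 0.88 without preparation 2. Relative to the median of all genes, the median of the 10 was 0.73, against 1.19 and 0.69 with the 2 scalings to the 75th percentile. The cause of these shifts was not tested. *Rfc4* is limited by signal over background in quiescent cells.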
